A study of Mus musculus with 4 samples.

Results

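The genes described here act at the nuclear end of Notch signalling: Rbpj and the coactivators Maml1, Maml2 and Maml3, the target genes Hes1, Hes5, Hey1, Hey2 and Heyl, and Lfng, which modifies the receptors. They are 10 named genes of 21631 protein-coding genes, listed for their place in the pathway and not for a measured value. The list was drawn up with earlier results of these data known. Each was looked up by name in 2 lists of genome regions enriched by chromatin immunoprecipitation and sequencing (ChIP-seq) for DNMT3B. The chromatin came from lung metastases of 4T1, a mammary tumour line from BALB/c mice that spreads to the lung. There were 2 DNMT3B ChIP libraries and 2 input libraries, that is, chromatin sequenced without an antibody, and each kind had lung labels 3 and 5. The labels name no genotype, treatment, time or age, and do not say whether the lungs are from separate mice or how much host lung tissue the chromatin held.

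Notch receptors are cut when a ligand on a neighbouring cell binds them, and the freed intracellular part enters the nucleus. There it joins RBPJ, a DNA-binding protein that otherwise holds repressors at the same sites, and a Mastermind-like coactivator (MAML), and the complex turns on Hes and Hey genes. HES and HEY proteins are themselves repressors of transcription, and Notch is active in some mammary tumours. DNMT3B adds methyl groups to cytosines that are followed by guanine (CpG), often in the bodies of transcribed genes.

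The narrow list, made with MACS, held 1705 distinct regions, and the broad list, made with SICER, held 8242 stretches called islands. The name of the island list points to a selection whose basis is unknown, so a gene without a listed island may have had one that was not kept, and island shares refer to the list as deposited. Both give positions and gene names without read counts, enrichment values or a value for either library. The depth and the spread between libraries are therefore unknown, and no test between libraries was made. A narrow region counted for a gene that it overlapped, or whose start it preceded by at most 5 kb by the distance in the list. An island was counted when its midpoint lay in the body of its paired gene or up to 5 kb upstream.

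Of the 10 genes, 2 carried a narrow region and 3 an island. Hes1 carried both, Hey1 a narrow region only, and Maml1 and Lfng islands only. Hes5, Hey2, Heyl, Rbpj, Maml2 and Maml3, 6 of 10, carried neither and are named nowhere in either list, under their symbols or older names. Among all protein-coding genes, 5.98% carried a narrow region, 13.4% an island, 2.01% both and 82.6% neither. With 10 genes, the counts of 2 and 3 rest on single genes, and nothing was read from their distance to these shares.

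Promoter sequence was at hand for 7 of the 10 genes. It is printed for Lfng, Maml1 and Hes5, which differ in how the calls lie at their starts. The start of Lfng lay under an island, Maml1 had islands only far inside the gene, and Hes5 had no call. The 250 bases before each start are given 5′ to 3′ on the gene's strand, from RefSeq on build GRCm38.p6, with every CpG in capitals because this is the pair of bases that DNMT3B methylates. They lie at chr5:140607091-140607340 on the plus strand for Lfng, at chr11:50292337-50292586 on the minus strand for Maml1 and at chr4:154960673-154960922 on the plus strand for Hes5. These positions are of another set than the deposited ones below and must not be set beside them.
Lfng: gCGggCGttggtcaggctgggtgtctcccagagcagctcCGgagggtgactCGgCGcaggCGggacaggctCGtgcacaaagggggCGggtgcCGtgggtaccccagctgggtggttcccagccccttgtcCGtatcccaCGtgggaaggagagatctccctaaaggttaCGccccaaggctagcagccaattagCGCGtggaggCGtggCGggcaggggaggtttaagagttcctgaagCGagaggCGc
Maml1: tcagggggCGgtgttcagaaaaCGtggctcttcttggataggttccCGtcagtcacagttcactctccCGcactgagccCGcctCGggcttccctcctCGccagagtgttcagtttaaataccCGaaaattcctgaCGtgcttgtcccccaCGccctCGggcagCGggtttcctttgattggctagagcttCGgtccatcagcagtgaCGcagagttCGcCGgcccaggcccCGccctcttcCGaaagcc
Hes5: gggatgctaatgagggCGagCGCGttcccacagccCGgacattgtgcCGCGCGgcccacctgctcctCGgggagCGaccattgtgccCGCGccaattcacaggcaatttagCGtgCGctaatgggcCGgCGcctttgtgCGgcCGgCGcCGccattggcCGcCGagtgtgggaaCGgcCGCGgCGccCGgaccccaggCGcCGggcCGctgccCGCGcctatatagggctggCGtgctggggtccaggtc
Lfng and Maml1 each held 18 CpG in these 250 bases, and Hes5 held 32, the most of any member with sequence. The other members without a call held 18 (Maml3), 22 (Hey2), 21 and 25 (Rbpj) and 2 and 6 (Maml2). Hes5 thus does not stand for the genes without a call.

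Hes1, the repressor gene most widely used as a readout of Notch activity, was the member with both calls. Its narrow region lay on chromosome 16 from 30066400 to 30067000 and was worded as contained within the gene. In the positions that the island list gives for the Hes1 transcript (NM_008235, plus strand, 30065442 to 30067882), the region ran from 958 to 1558 bp past the gene start. That is from 39.3% to 63.9% of the 2441 bp gene, so the narrow region lay in the middle of Hes1 and not at its start. Positions of this size are rounded to 100 bp, which leaves that placement unchanged. No exon annotation of the deposited positions was at hand, so exons and introns are not named.

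The Hes1 island lay on chromosome 16 from 30059200 to 30067599 and was 8400 bp wide. It began 6242 bp before the gene start and ended 2157 bp after it, so it covered the start and 88.4% of the gene. The whole narrow region lay inside it, and the island went on for 599 bp beyond the region's end. Over the whole narrow list, 521 regions (30.6%) overlapped an island. Of all islands, 12.3% covered a gene start without reaching the gene end. At 8.4 kb the Hes1 island was wider than the median island, at 4800 bp, and 20.8% of islands were at least as wide.

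The narrow region of Hes1 was among the widest of its kind. Of the 989 narrow regions rounded to 100 bp, 16 (1.62%) were at least 600 bp wide, and their median width was 100 bp. It stood on 4 identical lines of the deposited list, and 18.8% of narrow regions stood on at least 4. The meaning of a repeated line is not stated in the sources used here.

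**Figure D1:**
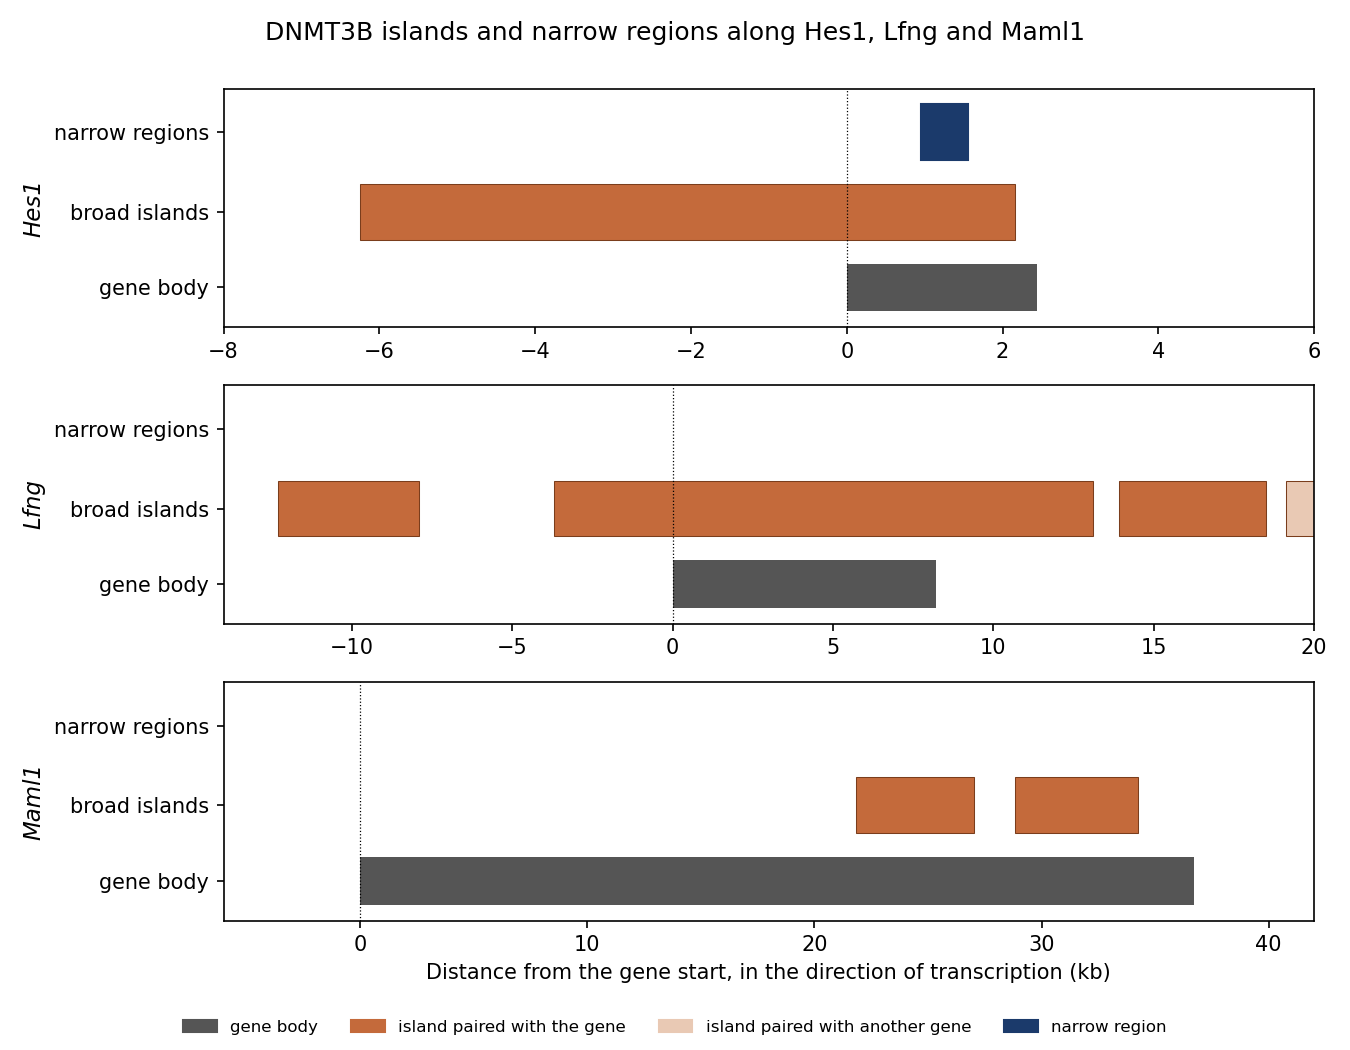
Map of Hes1, Lfng and Maml1 in the deposited positions. The x axis is the distance from the gene start in kb, in the direction of transcription, and the scale differs between panels. Grey bars are gene bodies, orange bars islands (dark where paired with the gene shown) and blue bars narrow regions. The Hes1 island covers the gene start and holds the narrow region, 1 Lfng island covers the whole gene, and both Maml1 islands lie from 21.8 to 34.2 kb past the start.

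Hey1, another target gene whose product pairs with HES proteins on DNA, had a narrow region and no island. The region lay on chromosome 3 from 8666810 to 8666860, on the minus-strand gene, and was worded as contained within it. It was 50 bp wide, stood on 1 line as 50.6% of narrow regions did, and touched no listed island of any gene. Most narrow regions touched none, as only 30.6% overlapped an island. On chromosome 3, 8 of 10 narrow regions worded as overlapping a gene fell in the positions that the island list gives for that gene, so the lists may not share all positions there. Of the 270 regions rounded to 10 bp, 87.4% were at least as wide, with a median of 155 bp. The island list pairs nothing with Hey1 and so gives no positions for it, and where along the gene the region lies is not reported here.

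The remaining target genes had no call. Hes5, which is best known from neural progenitors, and Hey2 and Heyl, known from heart and vessels, are of 1.7, 10.4 and 16.3 kb in RefSeq, against 2.4 kb for Hes1 and 3.7 kb for Hey1. Of 4850 protein-coding genes under 5 kb, the class that holds Hes1, Hes5 and Hey1, 3.09% had a narrow region and 5.13% an island. Between 5 and 20 kb, where Hey2, Heyl and Lfng fall, the shares were 6.05% and 12.5%.

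Of Rbpj and the 3 Maml genes, islands were listed for Maml1 alone, and none of the 4 had a narrow region. Maml1 encodes the coactivator that bridges the RBPJ complex to histone acetyltransferases. Its islands lay on chromosome 11 from 50071600 to 50076999 and from 50078800 to 50083999, in a minus-strand gene (NM_175334) listed from 50069136 to 50105838. The island nearer the start, 5200 bp wide, covered 59.5% to 73.7% of the way along the gene. The other, 5400 bp wide, covered 78.6% to 93.3%.

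The Maml1 islands left its start uncovered. The nearer island began 21.8 kb past the start, the next island upstream, paired with Mir804, ended 69.8 kb before it, and the islands of Maml1 covered 28.9% of the gene. They were 1800 bp apart and close to the median width, with 46.4% and 44.2% of all islands at least as wide. Lying inside the gene was the most frequent placement in the list, at 46.9% of islands.

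Rbpj, the DNA-binding subunit on which Notch output depends, and the coactivator genes Maml2 and Maml3 had neither call. In RefSeq they span 101.7, 413.0 and 418.0 kb. Of the 352 protein-coding genes of 400 kb or more, 12.5% had an island and 3.98% a narrow region, and from 100 to 400 kb the shares were 18.7% and 7.37%. Genes from 20 to 100 kb, such as Maml1, stood at 18.1% and 7.48%. The absence of calls at Maml2 and Maml3 is thus shared by most genes of their size.

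Lfng, which encodes a sugar transferase of the Golgi that lengthens O-fucose on Notch and so alters the response to ligands, had the most paired islands, 3, of which 1 met the midpoint rule, against 2 of 2 for Maml1. They lay on chromosome 5 from 141071000 to 141075399, from 141079600 to 141096399 and from 141097200 to 141101799, around a plus-strand gene (NM_008494) listed from 141083294 to 141091499. The middle island was 16800 bp wide. It ran from 3.7 kb before the start to 4.9 kb past the end and so covered all 8206 bp of the gene.

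Such cover was uncommon in the list. Of all islands, 3.17% covered a whole gene, 208 of 3771 protein-coding genes paired with an island (5.52%) lay wholly under 1 island, and 3.79% of islands were at least as wide as 16.8 kb. The first Lfng island ended 7.9 kb before the start, and the third began 5.7 kb past the gene end. By midpoint only the middle island was counted for Lfng. The 3 islands made up 25.8 kb of a 30.8 kb stretch, with gaps of 4200 and 800 bp. No narrow region was named for Lfng or lay within 100 kb of it, so the broad cover had no narrow call beside it.

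**Figure D2:**
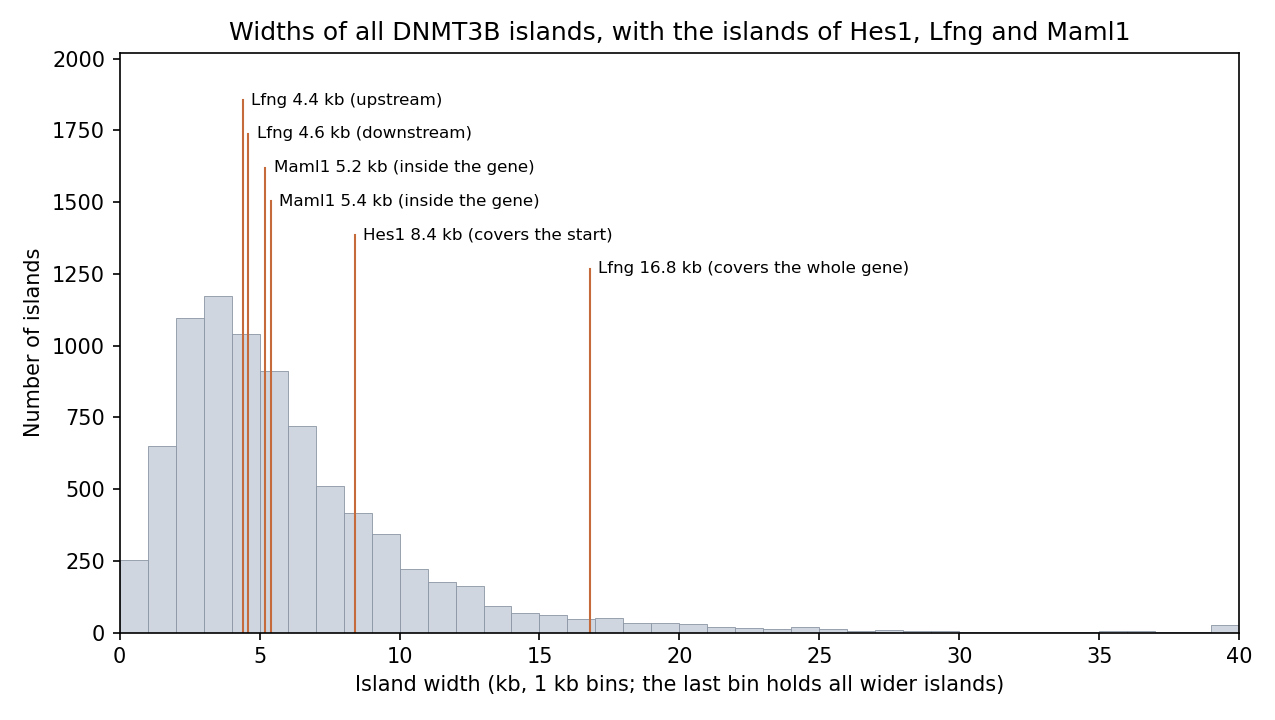
Histogram of the widths of all 8242 islands in kb (x axis, 1 kb bins) by number of islands (y axis), with an orange line for each of the 6 islands paired with Hes1, Lfng and Maml1. The flanking Lfng islands and both Maml1 islands sit between 4.4 and 5.4 kb, near the median of 4800 bp, and the Hes1 island at 8.4 kb and the middle Lfng island at 16.8 kb lie to the right.

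The 3 genes with islands differed in what surrounded them. Within 100 kb of Lfng there were 16 islands, 13 of them paired with other genes, and together they covered 113.2 kb. Maml1 had 12 islands within 100 kb, and Hes1 had 5. The median over 3822 protein-coding transcripts of the island list was 6, and 7.43% had as many as Lfng, 18.8% as many as Maml1 and 58.3% as many as Hes1.

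Around Hes1 the islands paired with other genes all lay upstream. The nearest, 15.6 kb wide, lay from 26.0 to 10.4 kb before the start of Hes1 and was paired with the noncoding gene 9030404E10Rik. A further island of 11.6 kb, paired with the noncoding gene 4632428C04Rik, lay from 55.8 to 44.2 kb before it. Beyond these, 2 islands were paired with Gm1968, and no island lay within 100 kb downstream. Around Lfng, 5 islands lay wholly upstream and 10 wholly downstream of the gene, the latter paired with Lfng itself, Ttyh3, Iqce, Baat1 and Amz1.

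**Figure D3:**
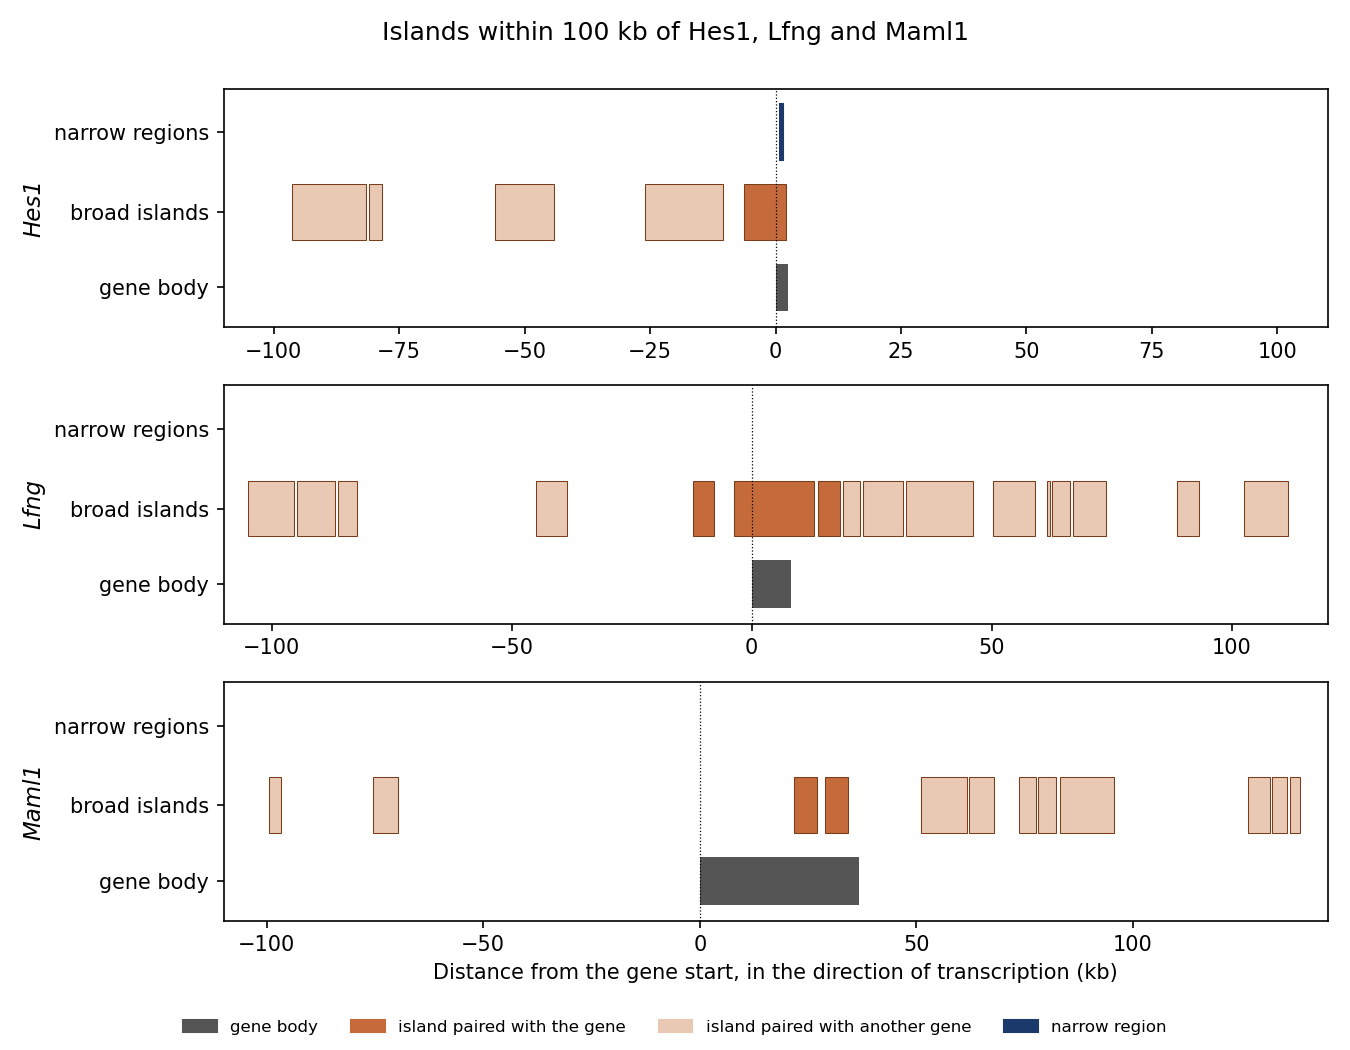
Islands (orange) and narrow regions (blue) within 100 kb of Hes1, Lfng and Maml1, by distance from the gene start in kb in the direction of transcription (x axis); pale islands are paired with other genes. There are 5 islands around Hes1, all at or upstream of the gene, 16 around Lfng on either side, and 12 around Maml1, of which 8 lie wholly downstream.

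Genes without calls have no deposited positions, so their surroundings were read from gene order. For each member, the 5 protein-coding genes on each side in RefSeq order were looked up in both lists. Of the 10 genes flanking Lfng, 8 carried an island, a count reached by 0.629% of all protein-coding genes. Maml1 had 5 such flanking genes, Hes1 had 4, Maml2 had 2 and Hes5 had 1. Hey1, Hey2, Heyl, Rbpj and Maml3 had none. The mean was 1.34 over all protein-coding genes and 3.02 over those that carry an island themselves.

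Narrow regions followed another order. Hey1 had 5 flanking genes with a narrow region, Hes1 had 4, Rbpj had 3, and Heyl and Maml2 had 1 each, against a mean of 0.60 over all protein-coding genes and 2.12 over those that carry a narrow region themselves. Hes5, Hey2, Maml1, Maml3 and Lfng had none. These means are over the genome, while 34.9% of protein-coding genes on the chromosome of Hes1 had a narrow region. On the chromosome of Hey1 the share was 5.09%. Rbpj thus lacked a call while its immediate neighbour Smim20 held a narrow region, on chromosome 5 from 53658400 to 53658600. The neighbour of Heyl, Pabpc4, held a region at 122961000 on chromosome 4, and the neighbours of Hes1 on either side carried a narrow region (Opa1) and an island (Cpn2). Hey2 and Maml3 were the members with no counted call of either kind at any flanking gene.

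**Figure D4:**
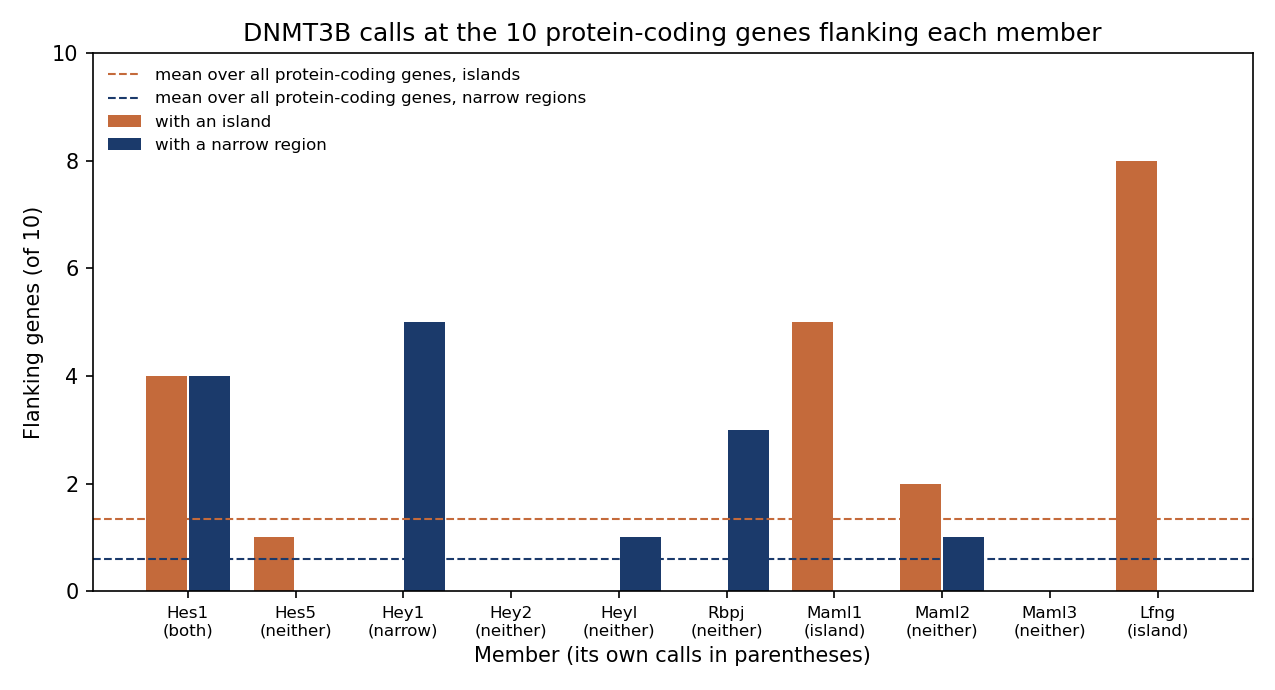
Number of the 10 flanking protein-coding genes (y axis) that carry an island (orange) or a narrow region (blue), for each member (x axis, its own calls in parentheses). Dashed lines are the means over all protein-coding genes, 1.34 for islands and 0.60 for narrow regions. Lfng stands at 8 for islands and Hey1 at 5 for narrow regions.

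Calls were also uneven between chromosomes, and the members are spread over 7 of them. On chromosome 16, which holds Hes1, 34.9% of protein-coding genes had a narrow region and 19.4% an island. On chromosome 5, which holds Lfng and Rbpj, 6.78% had a narrow region and 22.4% an island. On chromosome 11, which holds Maml1, these were 10.6% and 23.1%. On chromosome 4, with Hes5 and Heyl, the shares were 1.81% for narrow regions and 8.21% for islands. On chromosome 3, with Hey1 and Maml3, they were 5.09% and 6.71%. Chromosome 10, with Hey2, stood at 4.90% and 12.7%, and chromosome 9, with Maml2, at 3.66% and 10.6%. The part of the chromosome in any member's call was not tested.

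The CpG content at gene starts is described for the members that have a promoter window. RefSeq windows of 300 bases, from 250 before to 50 after a start, were found for 7 of the 10 genes (9 windows); Hes1, Hey1 and Heyl had none. The ratio of observed to expected CpG was 0.69 for Lfng and 0.91 for Maml1, whose islands left its start uncovered. Among genes without a call it was 1.04 for Hes5, 0.84 for both windows of Rbpj, 0.75 for Hey2, 0.64 for Maml3, and 0.13 and 0.33 for Maml2. Hes5 stood above or level with 94.3% of 21037 windows of protein-coding genes, and the first window of Maml2 with 13.8%. Most windows of any gene would thus fall between these members without a call. Windows were found for 79.8% of protein-coding genes and 70.0% of the members. Of the members with a call, only Lfng and Maml1 had a window, too few for a comparison of CpG content between gene groups. Such a comparison is void.

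**Figure D5:**
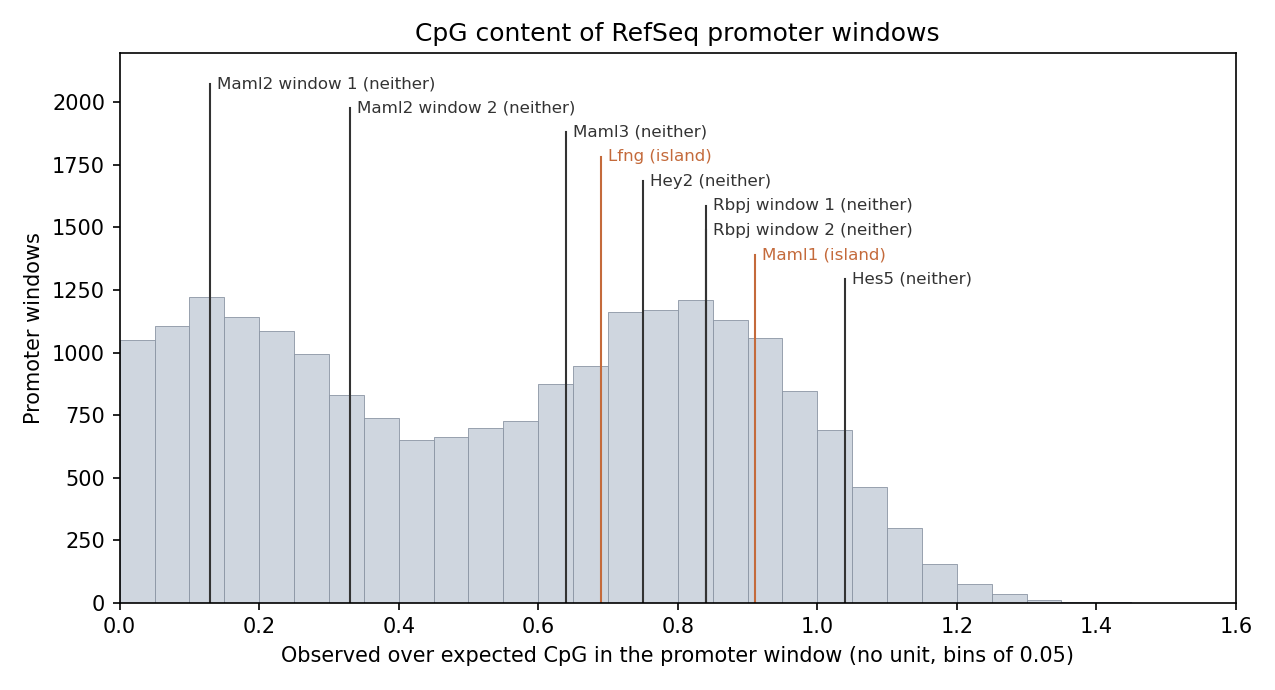
Ratio of observed to expected CpG (x axis, no unit) in 21037 RefSeq promoter windows of protein-coding genes, by number of windows (y axis), with a line for each window of a member and its calls in parentheses. Lfng and Maml1, which carry islands (orange), stand at 0.69 and 0.91. The windows without a call (black) run from 0.13 to 1.04, a range that holds most windows of any gene.

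Sites for the proteins that these genes encode were searched as letters on both strands. TGGGAA, the core that RBPJ recognises, was found in the windows of Lfng, Hes5, Hey2, Rbpj, Maml3 and the second window of Maml2, and in 24.2% of all windows. Lfng, Hes5, Hey2 and the first window of Rbpj held 2 matches each. CACGTG, an E-box, was found in Lfng alone of the members and in 7.91% of all windows. CACGCG, a site type bound by HES proteins, was again found in Lfng alone and in 12.3% of all windows. CACNAG, the N-box, was found in Lfng and the first window of Maml2, and in 41.9% of all windows. In the Lfng sequence printed above, the E-box begins 112 bases before the start and overlaps the TGGGAA that begins 108 bases before it. A match is a string of letters and not a measured binding site.

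The other Notch pathway genes were taken as a list of 42. Of these, 5 (11.9%) carried a narrow region, 14 (33.3%) an island, 2 both and 25 neither. Over all protein-coding genes the shares were 5.98%, 13.4%, 2.01% and 82.6%. Island shares also varied with gene length, from 5.13% under 5 kb to 18.7% from 100 to 400 kb. The list was not matched for length, its groups by role are small, and the difference from all genes was not tested. Notch1 had 3 narrow regions inside an island of 16.8 kb that covers its start, as the island of Hes1 does. They lay on chromosome 2 between 26357900 and 26359100, near the start of Notch1. The narrow region of Hes1 ran from 958 to 1558 bp past its start, which is the middle of a gene of only 2441 bp. A percent of gene length and a distance from the start are unlike measures, so no contrast with Notch1 was drawn. All 4 receptor genes had an island, as had 3 of 5 ligand genes, Dll4, Jag1 and Jag2. Of 8 genes of the proteases that cut the receptor, Psen2 alone had one, and none had a narrow region. Among 11 regulators, Dtx1, Dtx2 and Dtx4 had islands and Mib1 a narrow region.

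Close relatives of the members are part of that list. Of the other fringe genes, Mfng had a counted island of 1600 bp inside the gene, and Rfng had none. A second Mfng island, 44.4 kb wide, ran from 35.3 kb before its start to 9.1 kb into the gene, and was not counted because its midpoint lay too far upstream. Of 7 genes related to Hes1, Bhlhe41 carried both calls, with an island over its start and a narrow region at 145812000 on chromosome 6 outside that island. Helt had an island of 2400 bp that reached the gene end. Hes2, Hes3, Hes7 and Bhlhe40 had neither, and the 200 bp island paired with Hes6 ended 9.4 kb upstream, too far to count. Spen, a corepressor that acts with RBPJ, had 2 narrow regions on chromosome 4 between 141033000 and 141035000 and no island. Each is listed as 1000 bp wide, the rounding step of positions of this size. Their true widths, and whether they are apart, are therefore unknown. The enzyme gene Poglut1 had a narrow region on chromosome 16 from 38550000 to 38550300.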

How the data were processed

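The submitters' processing notes name Bowtie2 (given as 2.10) for alignment, MACS (given as 1.4) and SICER for calling, and mm10 as the build. The narrow list names MACS2 in its title, a difference that could not be settled. Both deposited lists hold base positions and distances in bp, with no counts, fold or p-values. The names of the lists point to a p-value cut-off for the narrow list and a selection for the island list, without saying how either was applied. Whether libraries were pooled is not stated in these sources.

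Narrow positions carry at most 6 significant digits. Identical narrow lines (4304 in all) were counted once, and an end written as a question mark was set to the start. Gene starts in the island list differ from the GRCm38 RefSeq table by 0.085 kb for Hes1, 476 kb for Lfng and 187 kb for Maml1, so the build of the deposited positions is unknown and distances were computed within the lists only. Of 572 narrow regions worded as overlapping a gene that the island list also places, 554 (96.9%) fell in those positions, with 8 of 10 on chromosome 3, 36 of 36 on 5, 93 of 94 on 11 and 107 of 109 on 16.

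Names were matched to RefSeq by transcript, symbol or unique synonym for 1702 of 1705 regions and 8238 of 8242 islands. Protein-coding genes of chromosomes Y and MT were left out. Motifs and CpG were counted in RefSeq promoter windows with Python 3.11.15. All 10 members were named, and of the other pathway genes mainly those with a call; 1 gene of that list is not reported here and was left out of its counts. Named neighbours are those paired with a call within 100 kb or next in gene order. Genes and lists were chosen with earlier results of these data known, and no test was made. The assignment code was tested on simulated data.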

Additional observations from a re-analysis of the deposited data

How the results depend on the processing

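The count of 2 members with a narrow region was the same with overlap only, with 20 kb on either side and with every line counted. Counting lines raised the narrow regions of the members from 2 to 5, since the Hes1 region stands on 4 lines. The 3 members with an island were the same number with 1 bp of overlap with the gene, with any paired island, and with islands of at least the median width. With islands required within 2 kb of a start the number was 2, and Maml1 was lost. Hes1 stayed the 1 member with both calls when regions were widened by their rounding step or allowed within 5 kb of an island. No paired analysis was possible because neither list gives a value for a library, so no replicate could be left out either. The unknown depth leaves it undetermined whether a gene without a call lacked enrichment, fell under the thresholds or was left out by the selection of islands.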
